A study of Mus musculus with 4 samples.

Results

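The 5 mature miRNAs mmu-miR-335-5p, mmu-miR-296-5p, mmu-miR-298-5p, mmu-miR-483-5p and mmu-miR-675-5p, whose hairpins lie at the imprinted Mest, Gnas, Igf2 and H19 loci of the mouse, were followed in small RNA libraries of the embryonic telencephalon. They were taken by name from a table of 1059 mature miRNAs, in which each has a single row. The libraries came from the most rostral piece of the telencephalic primordium at E11.5, with 2 libraries from RxCre-DicerF/F embryos (Rx-Dicer mutants hereafter) and 2 libraries from control embryos, which the sample labels call WT and the protocol DicerF/F. The floxed Dicer line was kept on C57BL/6 and the Rx3-Cre and wild-type lines on CD1, and the strain make-up of each embryo is not given in the sources used here. Cre is driven by the Rx3 promoter, and cells of the dissected piece in which it is not active keep Dicer. How many embryos went into a library, and whether the libraries of a genotype came from separate litters, is not given in the sources used here, so the spread between libraries may be partly technical.

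Genomic imprinting is the expression of a gene from a single parental allele, set by DNA methylation that was laid down in the germ line. Mest and Igf2, which encodes a fetal growth factor, are expressed from the paternal allele and H19, a long non-coding RNA, from the maternal allele, while the Gnas locus produces several transcripts of opposite parental origin. Each of these loci also carries miRNA hairpins, which Dicer cuts into mature miRNAs. In the early embryo Igf2 and H19 are best known for high expression in tissues of mesodermal and endodermal origin, and in the brain Igf2 is known mainly from the meninges and the choroid plexus. Read counts do not tell the parental alleles apart.

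The mature sequences, which are shown because the seed (bases 2 to 8, in capitals) sets which mRNAs a miRNA can pair with, were taken from RefSeq for build GRCm38.p6, where all 5 names had a match.
mmu-miR-335-5p: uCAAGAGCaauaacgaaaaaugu
mmu-miR-296-5p: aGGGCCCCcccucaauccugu
mmu-miR-298-5p: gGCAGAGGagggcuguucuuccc
mmu-miR-483-5p: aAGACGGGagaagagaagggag
mmu-miR-675-5p: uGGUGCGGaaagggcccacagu

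These 5 miRNAs form no sequence family. They carry 5 distinct seeds, and 0 of the 895 miRNAs of the table that were matched to RefSeq by name shares a seed with any of them. The closest other miRNA lay 7 edits (substituted, added or missing bases) from miR-483-5p, 8 from miR-335-5p, miR-296-5p and miR-675-5p and 9 from miR-298-5p. GC content was 66.7% in miR-296-5p, 65.2% in miR-298-5p, 63.6% in miR-675-5p and 54.5% in miR-483-5p, all above the median of 47.8% over the 230 tested miRNAs with a RefSeq match, and 30.4% in miR-335-5p. All 5 rows are 5p arms. Their 3p arms had no row and are not covered.

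The hairpins lie in 3 genomic regions (GRCm38, GENCODE M21). Mir335 lies on chromosome 6 from 30741299 to 30741396 on the plus strand, in an intron of 7 annotated Mest transcripts. Mir483 lies on chromosome 7 from 142654924 to 142654996 on the minus strand, in an intron of 7 Igf2 transcripts. It also falls in an intron of 1 transcript of Gm49394, a protein-coding gene that overlaps Igf2 on the same strand. Mir675 lies on the same strand of chromosome 7 from 142577064 to 142577147, 77776 bases from Mir483, and falls in an exon of 3 H19 transcripts and in an intron of 1 other. Mir296, from 174267047 to 174267125, and Mir298, from 174267504 to 174267585, lie 378 bases apart on the minus strand of chromosome 2. The annotation places this pair outside both Gnas and its antisense transcript Nespas, 14111 bases (Mir296) and 13651 bases (Mir298) beyond the annotated end of Nespas, which is on the same strand. Thus the annotation gives the pair no host gene, and only the other 3 hairpins lie within an annotated imprinted transcript.

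The Rx-Dicer libraries held 651031 and 516517 counts and the deeper control libraries 1299067 and 1133553, of which miR-9-5p alone took 28.2% to 42.6%. Levels are therefore given as scaled CPM, counts set against a common library total (CPM) after that total was corrected by edgeR's TMM factors (0.814 to 1.17). The test covered 274 miRNAs, those for which 2 or more libraries had 10 counts or more. All 5 miRNAs of interest reached this minimum, miR-675-5p only just. Of the neural marker miRNAs miR-9-5p was abundant in all libraries. The others were far lower, from miR-124-5p with 120 to 432 counts per library to miR-128-2-5p with 1 to 22. The muscle markers, of which only 5p arms were counted, had 1 count in all, so their 3p arms are not covered. The liver miRNA miR-122-5p had 8 to 34 counts per library. Summed levels of the non-neural marker lists differed between libraries of a genotype, with 1424 and 14156 scaled CPM of eye and sensory miRNAs in the Rx-Dicer libraries and 4443 and 11072 of mesenchymal miRNAs in the control libraries. The endothelial list summed to 244 to 431 and the epithelial list to 201 to 808 scaled CPM, with 0 miRNAs called in any of the marker lists.

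The 5 miRNAs differed widely in level, from a mean of 11.6 to one of 6579.6 scaled CPM. These are read counts, which were not calibrated between miRNAs to numbers of molecules. By mean scaled CPM over the 4 libraries miR-298-5p ranked 30th of 274 and miR-335-5p 34th, miR-296-5p 91st, miR-483-5p 125th and miR-675-5p 270th. The first pair could not be ordered, since miR-335-5p was above miR-298-5p in Rx-Dicer library 1 and control library 1 and below it in the other libraries. The other steps of this order held in each library. Together the 5 rows made up 1.51% (95% Wilson interval 1.48 to 1.54) and 1.53% (1.50 to 1.57) of all counts in the Rx-Dicer libraries, and 1.43% (1.40 to 1.45) and 0.874% (0.857 to 0.891) in control libraries 1 and 2. Such intervals cover counting error only, because copies made in PCR are counted like separate molecules. The plot of levels by library shows this spread between the 5 miRNAs and within each genotype.

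**Figure D1:**
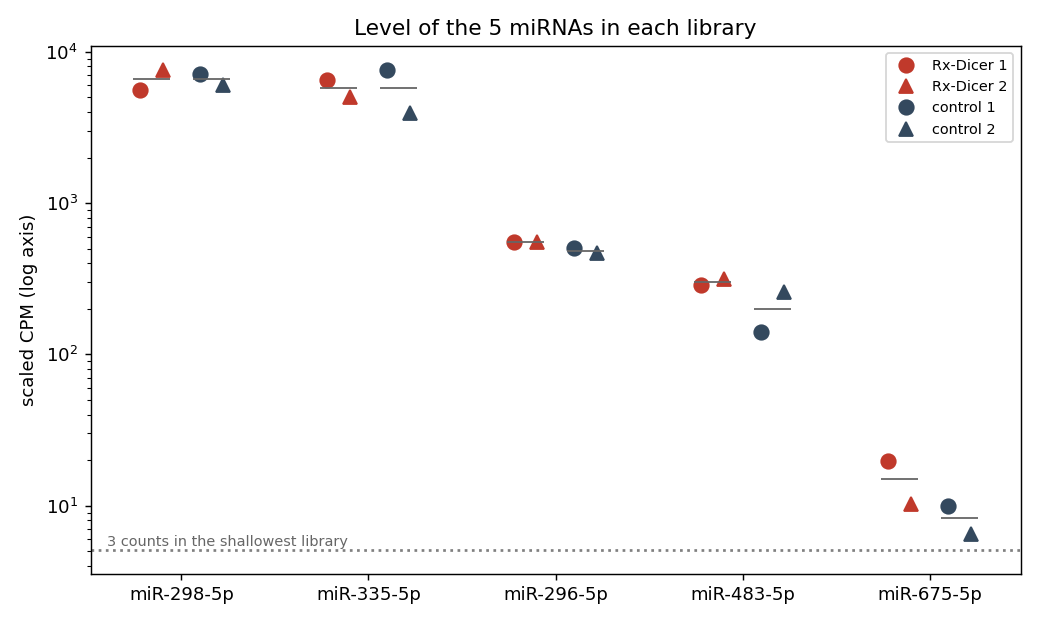
Scaled CPM (log axis) of the 5 miRNAs in each library, with Rx-Dicer libraries in red, control libraries in dark blue, replicate 1 as circles, replicate 2 as triangles and genotype means as grey lines. miR-298-5p and miR-335-5p overlap between genotypes, the other 3 are higher in both mutant libraries, and the dotted line marks 3 counts in the shallowest library.

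Whether loss of Dicer lowered these miRNAs was asked by comparing Rx-Dicer with control libraries. None of the 5 passed the threshold in either direction (edgeR's quasi-likelihood test, adjusted p under 0.05 by Benjamini-Hochberg over 274 miRNAs), while 2.55% of all tested miRNAs were called lower and 0% higher. With p under 0.05 before adjustment the count was also 0 of 5, where 8.39% of all tested miRNAs were lower and 1.09% were higher. DESeq2's Wald test also called 0, with no adjusted p given for miR-675-5p. The median log2 fold change was 0.19 over the 5 and 0.04 over all 274, and their values ran from −0.01 to 0.86. Read counts are shares of a library, so these values cannot show a decrease common to every miRNA, and in bulk tissue fewer cells of a type cannot be told from less RNA per cell.

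In the scaled data 3 of the 5 (miR-296-5p, miR-483-5p and miR-675-5p) were higher in both mutant libraries than in both control libraries and 0 were lower in both. Over all tested miRNAs, 17.9% were higher in both and 24.5% lower in both. The separation depended on the scaling. It was the same 3 miRNAs with DESeq2's size factors, upper-quartile scaling, total counts only and total counts without miR-9-5p, where 20.1% to 48.5% of all miRNAs were higher in both. With libraries scaled to equal counts of 3 red-cell miRNAs it was 0 of 5, and miR-296-5p and miR-298-5p were then lower in both, as were 48.9% of all miRNAs. In the TMM-scaled data the red-cell miRNAs themselves summed to 7595 and 8504 scaled CPM in the mutants and 5737 and 6362 in the controls, with 2 of 3 higher in both mutants and 0 called. The rows of miR-486a-5p and miR-486b-5p hold equal counts and were taken once here. The neural list moved the other way, at 241295 and 259502 scaled CPM in the mutants and 340387 and 524494 in the controls. Nearly all of this sum was miR-9-5p alone, at 240963 and 259154 in the mutants and 339853 and 524056 in the controls. Of the tested neural miRNAs 3 of 4 were lower in both mutants, with a median log2 fold change of −0.47 and 0 called. The exception was miR-128-1-5p, at 0.048. The part of either cell type in the levels of the 3 miRNAs was not tested.

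**Figure D2:**
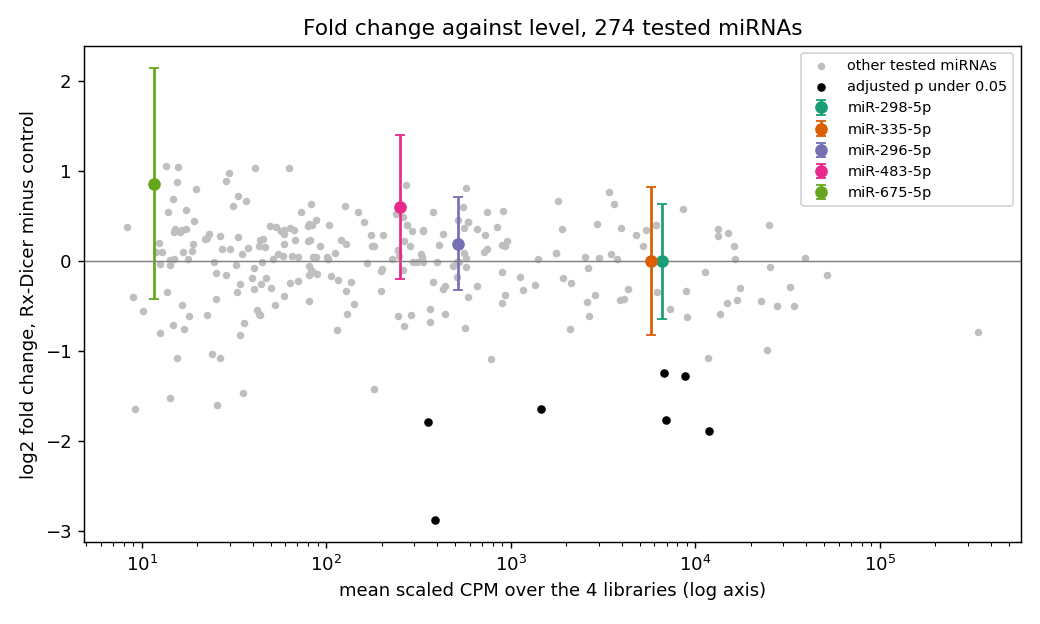
log2 fold change (Rx-Dicer minus control) against mean scaled CPM (log axis) for the 274 tested miRNAs, with those under an adjusted p of 0.05 in black and the 5 imprinted-locus miRNAs in colour with 95% intervals of the fit. All 5 intervals include 0, and the widest, from −0.42 to 2.14, belongs to miR-675-5p, the least abundant.

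miR-335-5p, whose hairpin lies in an intron of Mest, had 4922 and 2970 counts in the Rx-Dicer libraries and 9135 and 3656 in the control libraries. The scaled levels were 6469.7 and 5064 CPM in the mutants against 7592 and 3964 CPM in the controls, so both mutant libraries lay between the control libraries. The means were 5767 ± 994 and 5778 ± 2565 scaled CPM (SD, n = 2 libraries each), and edgeR gave a log2 fold change of −0.0027 (SE 0.35, 95% interval −0.82 to 0.82, adjusted p = 0.994). The interval leaves room for changes in either direction. The control libraries differed 1.92-fold, a gap larger than that of 90.9% of the tested miRNAs, while the mutant libraries differed 1.28-fold. Without control library 1 the log2 fold change was 0.58 and without control library 2 it was −0.40.

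miR-296-5p and miR-298-5p come from the hairpin pair near Nespas, and miR-298-5p had the higher count of the pair in every library. miR-296-5p had 422 and 325 counts in the mutants and 607 and 429 in the controls, or 554.7 and 554.2 against 504 and 465 scaled CPM. Both mutant libraries thus lay above both controls, by a small margin. Mean levels were 554 ± 0.373 and 485 ± 27.8 scaled CPM (SD, n = 2 each), with a log2 fold change of 0.19 (SE 0.22, 95% interval −0.33 to 0.71, adjusted p = 0.804 by edgeR). The 1.00-fold gap between its mutant libraries was the smallest of the 274 tested miRNAs, and the 1.08-fold gap between its control libraries was also small, with 13.9% of tested miRNAs below it. The direction depended on the scaling, since with equal red-cell miRNAs the log2 fold change was −0.22.

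miR-298-5p had 4230 and 4441 counts in the mutants and 8588 and 5579 in the controls, or 5560.1 and 7573 against 7137 and 6049 scaled CPM. The control libraries lay between the mutant libraries, the opposite arrangement to that of miR-335-5p. Mean levels were 6566 ± 1423 scaled CPM for Rx-Dicer and 6593 ± 769.7 for control libraries (SD, n = 2 each), and the log2 fold change was −0.0059 (SE 0.27, 95% interval −0.64 to 0.63, adjusted p = 0.990 by edgeR). Its direction turned with the setting, for example to 0.39 with total counts only and to 0.20 without Rx-Dicer library 1, against −0.25 without Rx-Dicer library 2.

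A ratio of counts within a library needs no scaling. For each count of miR-296-5p there were 10.02 counts of miR-298-5p in Rx-Dicer library 1 (exact 95% interval 9.07 to 11.1), 13.7 in Rx-Dicer library 2 (12.2 to 15.3), 14.1 in control library 1 (13.0 to 15.4) and 13.0 in control library 2 (11.8 to 14.4). Rx-Dicer library 1 was the low one, and its interval did not reach those of the other libraries. On the log2 scale the ratio averaged 3.55 ± 0.32 for Rx-Dicer and 3.76 ± 0.086 for control libraries (SD, n = 2 each), and the difference of −0.21 did not pass a two-sided exact permutation test (p = 0.667), whose smallest possible p with 2 against 2 libraries is 0.333. Without Rx-Dicer library 1 the difference was 0.0099.

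**Figure D3:**
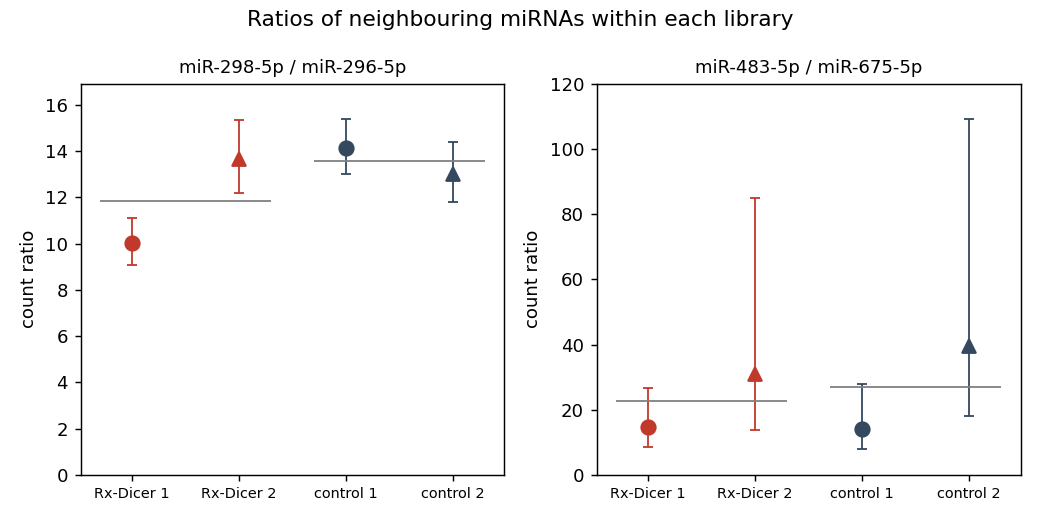
Count ratio (linear axis from 0) of miR-298-5p to miR-296-5p, left, and of miR-483-5p to miR-675-5p, right, in each library, with exact 95% counting intervals and grey lines at genotype means. The left ratio is 10.02 in Rx-Dicer library 1 and 13.0 to 14.1 in the others, and the right ratio runs from 14.2 to 39.7 with wide intervals.

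miR-483-5p, whose hairpin lies in an intron of Igf2, had 220 and 185 counts in the mutants and 170 and 238 in the controls. On the scaled level this was 289 and 315 CPM against 141 and 258 CPM. Both mutants lay above both controls, and control library 1 stood lowest, at 1.82-fold below control library 2. Means were 302 ± 18.6 and 199.7 ± 82.6 scaled CPM (SD, n = 2 each), and the log2 fold change of 0.60 (SE 0.34, 95% interval −0.20 to 1.40) did not pass the threshold (adjusted p = 0.602 by edgeR). Its share of all counts was 0.0338% (95% Wilson interval 0.0296 to 0.0386) and 0.0358% (0.0310 to 0.0414) in the mutants, and 0.0131% (0.0113 to 0.0152) and 0.0210% (0.0185 to 0.0238) in the controls. These shares differ beyond counting error between mutant and control libraries and also between the control libraries. Shares rest on total counts, with which 48.5% of all tested miRNAs were higher in both mutants and the median log2 fold change was 0.44. Without control library 1 the log2 fold change was 0.27, and without control library 2 it was 1.10 (adjusted p = 0.258 by edgeR).

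Control library 1 was also the lowest in mesenchymal, white-cell, red-cell (5737 scaled CPM) and epithelial markers (201 scaled CPM). In the endothelial list it was at 253 scaled CPM, against 244 in Rx-Dicer library 2. In the eye and sensory list it was at 3456, against 1424 in Rx-Dicer library 1. In the neural list it was at 340387, against 241295 in Rx-Dicer library 1. It was the highest in the liver miRNA miR-122-5p (34 counts). The summed level of 5 mesenchymal miRNAs, led by miR-199a-5p, was 11917 and 11348 scaled CPM in the mutants and 4443 and 11072 in the controls, with a median log2 fold change of 0.58 and 0 of 5 called (2 were higher in both mutants, as were 17.9% of all tested miRNAs). Counts of miR-483-5p came to 2.43% and 2.78% of the counts of these markers in the mutants and to 3.18% and 2.33% in the controls, so on this scale the genotypes overlapped. The summed levels of 2 white-cell miRNAs were 113 and 121 against 65.7 and 96.5 scaled CPM, of which 1 was tested and was higher in both mutants. No mesenchymal or white-cell marker with a row was at 0 in all libraries. The markers miR-199a-3p, miR-214-3p, miR-142a-3p and miR-223-3p, also chosen for these lists, had no row and are not covered. The part of these cells in the level of miR-483-5p was not tested.

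**Figure D4:**
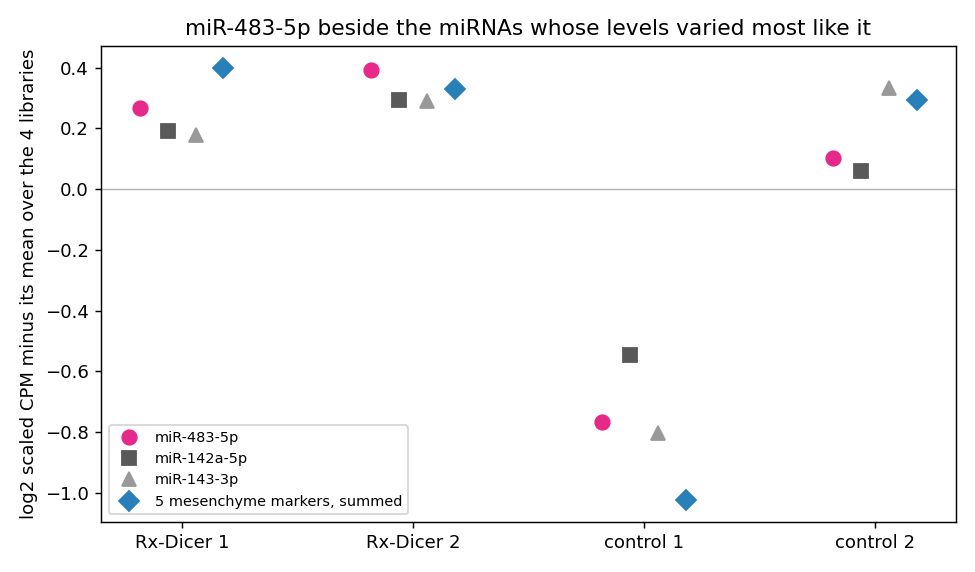
log2 scaled CPM minus its mean over the 4 libraries, for miR-483-5p, the 2 miRNAs whose levels varied most like it, and the summed mesenchymal markers. All 4 are lowest in control library 1, which for the 2 miRNAs largely follows from their choice over these same libraries. miR-483-5p is highest in Rx-Dicer library 2.

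miR-675-5p, from the hairpin in H19, was close to the limit of detection, with 15 and 6 counts in the mutants and 12 and 6 in the controls. The scaled levels were 19.7 and 10.2 CPM against 9.97 and 6.51 CPM, where 3 counts correspond to 2.49 to 5.12 CPM. Rx-Dicer library 1 was high, and Rx-Dicer library 2 exceeded control library 1 only narrowly. Means were 15.0 ± 6.71 and 8.24 ± 2.45 scaled CPM (SD, n = 2 each), with a log2 fold change of 0.86 (SE 0.55, 95% interval −0.42 to 2.14, adjusted p = 0.603 by edgeR). Shares of all counts were 0.00230% (95% Wilson interval 0.00140 to 0.00380) and 0.00116% (0.000532 to 0.00253) in the mutants, and 0.000924% (0.000528 to 0.00161) and 0.000529% (0.000243 to 0.00115) in the controls. The interval of Rx-Dicer library 2 overlaps those of both controls, and that of Rx-Dicer library 1 overlaps that of control library 1. An overlap of intervals is not a test of a difference, and single libraries were not tested against each other. The log2 fold change was 0.28 without Rx-Dicer library 1.

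The ratio of miR-483-5p to miR-675-5p, from the neighbouring Igf2 and H19 loci, was 14.7 (exact 95% interval 8.70 to 26.7) and 30.8 (13.9 to 85.1) in the mutants and 14.2 (7.90 to 28.0) and 39.7 (18.0 to 109) in the controls. All 4 libraries thus held many more counts of the Igf2 miRNA. Its log2 averaged 4.33 ± 0.71 for Rx-Dicer and 4.48 ± 1.01 for control libraries (SD, n = 2 each), a difference of −0.15 (two-sided exact permutation test, p = 1). Leaving out 1 library moved this difference to −0.65 (without Rx-Dicer library 2), −0.86 (without control library 1), 0.35 (without Rx-Dicer library 1) or 0.56 (without control library 2).

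How far these values rest on the scaling is shown by the plot of fold changes under 6 scalings. Over all 274 miRNAs the median was −0.37 when red-cell miRNAs were set equal and 0.44 for total counts alone, and the 5 miRNAs moved with it. A change of scaling shifts every miRNA by about the same amount, so the distance from that median is nearly fixed by construction. With TMM it was −0.038 for miR-335-5p, −0.041 for miR-298-5p, 0.16 for miR-296-5p, 0.57 for miR-483-5p and 0.82 for miR-675-5p.

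**Figure D5:**
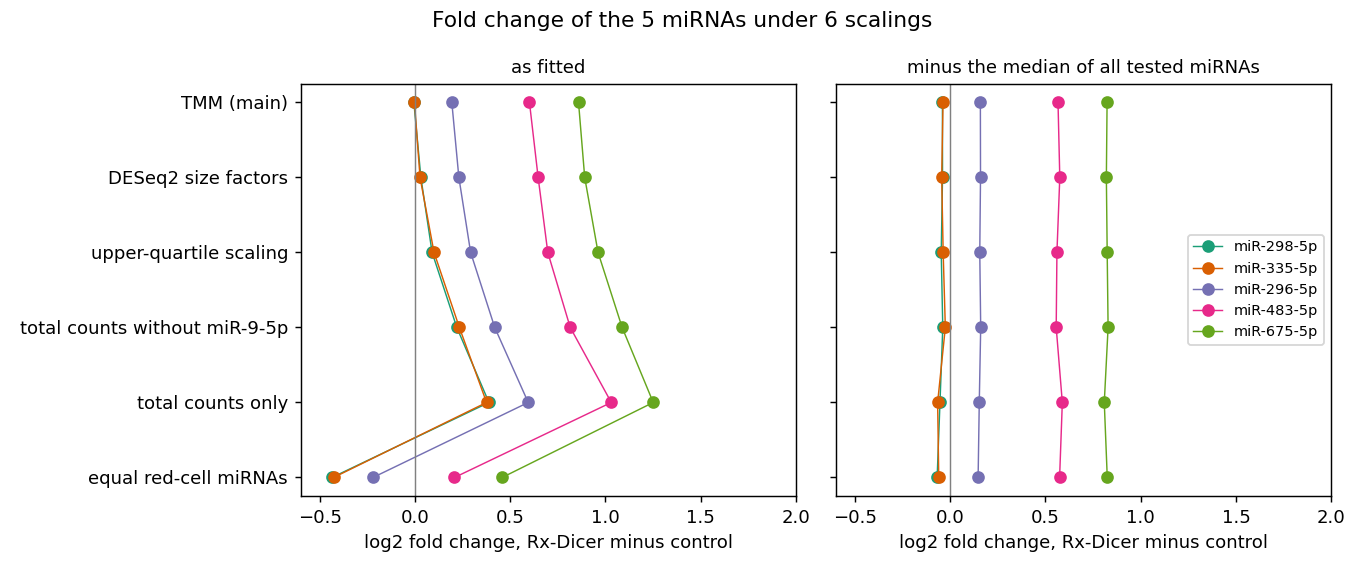
log2 fold change (Rx-Dicer minus control) of the 5 miRNAs under 6 scalings of the libraries, as fitted (left) and minus the median of all tested miRNAs (right). As fitted, miR-335-5p and miR-298-5p run from −0.44 to 0.39, and relative to the median each miRNA stays at nearly one value, as a shift common to all miRNAs must give, with miR-675-5p and miR-483-5p farthest to the right.

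Among all tested miRNAs, those whose levels varied most like each of the 5 were found by the Euclidean distance between log2 scaled CPM centred over the 4 libraries, a description over 4 points that share their scaling. The closest were miR-770-5p (distance 0.107) and miR-31-5p (0.203) for miR-335-5p, for which the median distance to all tested miRNAs was 0.969. They were miR-501-5p (0.129) and miR-324-5p (0.147) for miR-296-5p, and miR-412-5p (0.107) and miR-877-5p (0.109) for miR-298-5p. miR-142a-5p (0.257), a miRNA of white blood cells, and miR-143-3p (0.270), known from smooth muscle and mesenchyme, were closest to miR-483-5p. miR-1251-5p (0.232) and miR-299a-3p (0.465) were closest to miR-675-5p. The neighbours miR-296-5p and miR-298-5p lay 0.391 apart, and miR-483-5p and miR-675-5p 1.27 apart.

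Of these 10 miRNAs, 3 (miR-770-5p, miR-412-5p and miR-299a-3p) belong to the imprinted Dlk1-Dio3 region, a large cluster of imprinted miRNAs expressed from the maternal allele. This region supplied 37 of the 274 tested miRNAs (13.5%). None of the 37 was called in either direction. Their median log2 fold change was 0.24, with a range from −0.015 to 0.97, and 11 (29.7%) were higher in both mutants while 0 were lower in both, where all tested miRNAs gave 17.9% and 24.5%. The share over all tested miRNAs moves with the scaling, from 2.19% to 48.5% higher in both. The median of the 37 lay 0.17 to 0.26 above that of all tested miRNAs under the settings tried, but was −0.14 as fitted with equal red-cell miRNAs. Between scalings this distance is nearly fixed by construction, as for the 5 miRNAs. The highest value was that of miR-433-5p, at 31.5 and 47.7 scaled CPM in the mutants and 17.5 and 22.8 in the controls (adjusted p = 0.482 by edgeR). The rows of miR-299a-3p and miR-299b-3p hold equal counts, so that their reads cannot be told apart. Those of miR-299a-5p (55, 33, 68 and 42) and miR-299b-5p (54, 33, 67 and 42) hold nearly equal counts. The 37 rows may thus count some reads more than once. Of the miR-299 5p rows only miR-299b-5p was higher in both mutants. Of 16 further miRNA rows from other imprinted regions (miR-344, miR-489, miR-653 and miR-184), 12 were at 0 in all libraries and 0 reached the minimum for testing.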

How the data were processed

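Small RNA was sequenced from 2 Rx-Dicer and 2 control libraries of the E11.5 rostral telencephalic primordium. The authors deposited raw read counts per mature miRNA and precursor, made with miRDeep2 on mm10. 1 row was kept per mature miRNA, that of the precursor with the highest total. Counts were fitted with edgeR 4.0.16 (R 4.3.3, TMM scaling, quasi-likelihood test, genotype only) over the 274 miRNAs that reached 10 counts in 2 or more libraries, with Benjamini-Hochberg adjustment and a threshold of 0.05. DESeq2 1.42.0, which the study used, was an alternative, as were other scalings, count minimums, all precursor rows, a replicate block and leaving out each library. Scripts were tested on simulated data. Depth was 516517 to 1299067 counts per library, and 3 counts were taken as the limit that a count of 0 allows. Ratios were tested with exact permutation tests (scipy 1.17.1). Named besides the 5 miRNAs are, for each, the 2 tested miRNAs of smallest distance, and imprinted and cell type lists. miR-433-5p was named after its values were seen. The members and lists were chosen with earlier results of these data known. P-values rest only on the spread between these libraries, which may be technical. For each miRNA, edgeR takes that spread partly from all tested miRNAs.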

Additional observations from a re-analysis of the deposited data

How the results depend on the processing

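Over the alternatives 0 of the 5 miRNAs passed the threshold, with a lowest adjusted p of 0.188 (edgeR and DESeq2). Of 69 fold changes, 53 kept their direction and 16 turned it. Of the 16, 11 came with another scaling or DESeq2, which shifted the median of all miRNAs too, and 5 with the block or without 1 library, whose cause was not tested. miR-335-5p turned to 0.026 with DESeq2's size factors, 0.38 with total counts only, 0.10 with upper-quartile scaling, 0.23 without miR-9-5p and 0.026 by DESeq2's Wald test. miR-298-5p turned to 0.031, 0.39, 0.090, 0.22 and 0.031 in the same order, and miR-296-5p to −0.22 with equal red-cell miRNAs. Leaving out 1 library, where the lone library is assumed to vary like the other genotype, gave −0.40 to 0.58 for miR-335-5p, 0.14 to 0.29 for miR-296-5p, −0.25 to 0.20 for miR-298-5p, 0.27 to 1.10 for miR-483-5p and 0.28 to 1.25 for miR-675-5p. The log2 ratio differences ran from −0.44 to 0.0099 for miR-298-5p to miR-296-5p and from −0.86 to 0.56 for miR-483-5p to miR-675-5p. Of all miRNAs 7 were called, against 4 with DESeq2's size factors, 0 with total counts only (with p under 0.05 before adjustment, 10 were lower and 51 higher), 3 with upper-quartile scaling, 3 without miR-9-5p, 11 with equal red-cell miRNAs, 11 by DESeq2, 14 with no count minimum, 14 over all precursor rows and 0 to 6 without 1 library. Fold changes were negative for 45.6% of miRNAs, for 21.9% under total counts and for 84.7% under red-cell scaling. Same-numbered libraries deviated together only weakly (correlation 0.083 across miRNAs), so the numbers were not taken as pairs. With a replicate block miR-335-5p was at 0.061 and 0 miRNAs were called (edgeR, where 20 were lower and 4 higher with p under 0.05 before adjustment). With at least 100 counts, 10 of 155 tested miRNAs were called, and miR-675-5p had no value.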
